A study of Mus musculus with 2 samples.

Results

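Peaks inside protein-coding genes and at a distance from every gene end made up 407 of the 2977 regions (13.7%, Wilson interval 12.5 to 14.95%) called in mouse muscle stem cells by chromatin immunoprecipitation with sequencing (ChIP-seq) against green fluorescent protein (GFP). A peak was counted here when its summit lay on chromosomes 1 to 19 within the span of a protein-coding gene and was more than 10 kb and at most 50 kb from the nearest end of any protein-coding gene. The choice rested on positions only, so the strength of these peaks was not used to choose them. Both libraries came from muscle stem cells sorted by flow cytometry from untreated C57BL/6 mice of the genotype Pax7-YFP KI, in which yellow fluorescent protein (YFP) was knocked in at Pax7. For the ChIP library the antibody was GFP (Thermo Fisher, A-11122), and the other library was input DNA with no antibody. Whether YFP is fused to the PAX7 protein is not given in the labels, so the peaks are described here as GFP ChIP peaks. With 1 library per group nothing could be compared with a spread between libraries, and ChIP from cells without the tag was not analysed here. The labels used here give no age, sex or number of animals.

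PAX7 carries a paired domain and a homeodomain, and its gene is active in satellite cells, the stem cells that lie along muscle fibres. Many transcription factors bind distal regulatory DNA as well as promoters, and introns of long genes hold many such elements. A long gene can also carry internal promoters, from which shorter transcripts of the same gene or of a noncoding RNA begin. A peak in an intron can therefore stand on an enhancer of its host gene, on an enhancer of another gene or on an internal promoter. A list of peaks does not tell these apart, and assignment to a host gene below states position only.

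Some of these peaks lay on annotated starts of transcription inside the host gene. The RefSeq start table (GRCm38.p6) was used for this, and 394 of the 407 peaks lay on chromosomes with starts in it. Among these 25 (6.35%, Wilson interval 4.33 to 9.20%) had the summit within 1 kb of such a start, and 16 of the 25 within 250 bp. In 19 cases the nearest start belonged to the host gene itself, as a further start inside its span. In the other 6 it belonged to a long noncoding RNA (lncRNA) gene in the span of the host. Besides the nearest start a peak can cover others, as the peak in Por also covers a start of Gm40345 on the minus strand. Sequence is given for 6 of the 25 whose peak covers the start, as examples of the DNA at such starts. The peak covers only part of most of these runs, so a marked match can lie outside it. They are the 3 with the highest fold enrichment (Mlxipl, Por and Trim2) and the 3 with a TGANTCA match inside the peak (A130051J06Rik, Tnpo1 and Tank). Each run holds 250 bases before the start and the first 20 bases from it, 5′ to 3′ on the strand of that transcript. Capitals mark TAAT or its reverse complement ATTA, the core bound by many homeodomains, and TGANTCA, the site bound by AP-1 (Fos and Jun) proteins. In order the runs come from chr5:135106641-135106910 (plus strand), chr5:135688895-135689164 (plus strand), chr3:84259760-84260029 (minus strand), chr15:95804442-95804711 (minus strand), chr13:98891023-98891292 (minus strand) and chr2:61592902-61593171 (plus strand).
Mlxipl: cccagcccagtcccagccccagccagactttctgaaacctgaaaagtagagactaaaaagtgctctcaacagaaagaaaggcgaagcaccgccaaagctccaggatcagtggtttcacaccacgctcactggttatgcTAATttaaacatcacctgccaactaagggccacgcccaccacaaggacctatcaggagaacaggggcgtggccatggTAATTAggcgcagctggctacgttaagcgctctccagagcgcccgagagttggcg
Por: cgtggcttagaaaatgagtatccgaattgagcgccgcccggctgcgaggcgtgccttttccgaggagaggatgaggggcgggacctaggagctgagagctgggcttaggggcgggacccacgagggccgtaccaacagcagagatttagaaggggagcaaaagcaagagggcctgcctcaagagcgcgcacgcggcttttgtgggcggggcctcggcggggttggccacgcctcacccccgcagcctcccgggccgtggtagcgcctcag
Trim2: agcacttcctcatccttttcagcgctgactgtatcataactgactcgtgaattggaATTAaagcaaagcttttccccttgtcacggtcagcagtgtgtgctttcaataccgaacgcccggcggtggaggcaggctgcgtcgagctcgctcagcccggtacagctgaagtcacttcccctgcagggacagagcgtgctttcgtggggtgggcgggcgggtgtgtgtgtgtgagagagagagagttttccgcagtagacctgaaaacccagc
A130051J06Rik: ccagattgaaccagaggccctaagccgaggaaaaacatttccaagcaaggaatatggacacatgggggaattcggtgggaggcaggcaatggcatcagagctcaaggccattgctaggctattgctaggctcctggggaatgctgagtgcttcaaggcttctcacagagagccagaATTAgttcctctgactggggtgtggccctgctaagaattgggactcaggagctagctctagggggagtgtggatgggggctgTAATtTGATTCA
Tnpo1: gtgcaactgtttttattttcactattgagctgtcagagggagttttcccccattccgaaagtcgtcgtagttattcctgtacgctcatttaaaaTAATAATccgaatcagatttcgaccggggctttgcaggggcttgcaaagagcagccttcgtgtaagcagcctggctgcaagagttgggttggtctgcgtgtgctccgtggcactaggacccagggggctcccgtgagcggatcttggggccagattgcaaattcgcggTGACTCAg
Tank: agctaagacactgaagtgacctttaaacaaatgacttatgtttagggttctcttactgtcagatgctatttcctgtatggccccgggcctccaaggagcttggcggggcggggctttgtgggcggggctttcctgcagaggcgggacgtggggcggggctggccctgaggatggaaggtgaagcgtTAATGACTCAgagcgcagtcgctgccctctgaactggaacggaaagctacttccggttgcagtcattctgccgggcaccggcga

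The runs differ in base composition and in what they match. That of Por, which encodes the electron donor of microsomal cytochrome P450 enzymes, was 66.3% G or C with 24 CpG pairs and held neither motif. That of Mlxipl, the gene of the glucose-responsive factor ChREBP, had 3 TAAT or ATTA matches, a pair of which overlap in TAATTA just upstream of the start. The run at the lncRNA gene A130051J06Rik, inside the phospholipid scramblase gene Ano6, ended in TGATTCA and had 2 CpG pairs, the fewest of the 6. Tnpo1, a nuclear import receptor gene, and Tank, the gene of an adaptor of TBK1 signalling, each held TGACTCA. The centres of the TGANTCA matches in A130051J06Rik, Tnpo1 and Tank lay 40, 34 and 34 bp from the summit of their peak. These 3 were chosen for a match inside a narrow peak, so a short distance followed from the choice.

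In all, 16 of the 394 peaks on chromosomes with starts overlapped a start window of 300 bases (250 before and 50 from the start). For 5 of these 16 peaks a start window held TGANTCA (31.3%, Wilson interval 14.2 to 55.6%). Here and below a match counted anywhere in the window, inside or outside the peak. The overlap of window and peak was as small as 20 bp (Rxrg). The same match stood in start windows of 25 of 565 peaks within 1 kb of a gene end (4.42%, 3.01 to 6.45%), on either strand. It stood in 7.81% of all 32850 start windows, counted per window. Shares of peaks count a peak once if any of its windows matched, with 19 windows for the 16 peaks and 718 for the 565. Other peaks far from gene ends were closer to the 16, with 3 of 12 in intergenic DNA at 10 to 50 kb (Wilson interval 8.89 to 53.2%), 2 of 7 in intergenic DNA beyond 50 kb and 1 of 7 in genes beyond 50 kb. The other 2 matches, at Tbc1d14 and Pld1, lay outside the peak, 106 and 250 bp from the summit. TAAT (both strands, with any overlap counted) stood in start windows of 10 of the 16 peaks (62.5%) against 58.0% of all start windows. The E-box CANNTG stood in windows of 11 (68.8%) against 72.3%. TAAT followed by ATTA after 2 or 3 bases, a homeodomain pair, was in the windows of none of the 16. Of all start windows, 0.390% and 0.487% hold these spacings. The counts are small, the motifs were scanned after the internal starts had been seen, and a match describes letters only. Genome sequence outside the start windows was not used here.

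DNA close to internal starts carried these peaks at a higher density than the rest of the same territory. Within 1 kb of an annotated start there were 6.80 peaks per Mb (exact Poisson interval 4.40 to 10.04), and 1.08 per Mb (0.973 to 1.197) elsewhere, a ratio of 6.29. That DNA made up 1.07% of the territory. Both densities rest on the starts in the table, and the DNA elsewhere can hold starts that it lacks. Peaks deeper in genes, beyond 50 kb from every end, had nearly the same values, 6.78 per Mb (3.61 to 11.6) by starts and 1.01 per Mb (0.901 to 1.12) elsewhere. These intervals cover counting error only, and no test was made between the classes because peaks of a single library are not replicates. Strength gave no such contrast: the median fold was 7.59 in the 25 peaks at starts and 7.42 in the other 369.

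**Figure D1:**
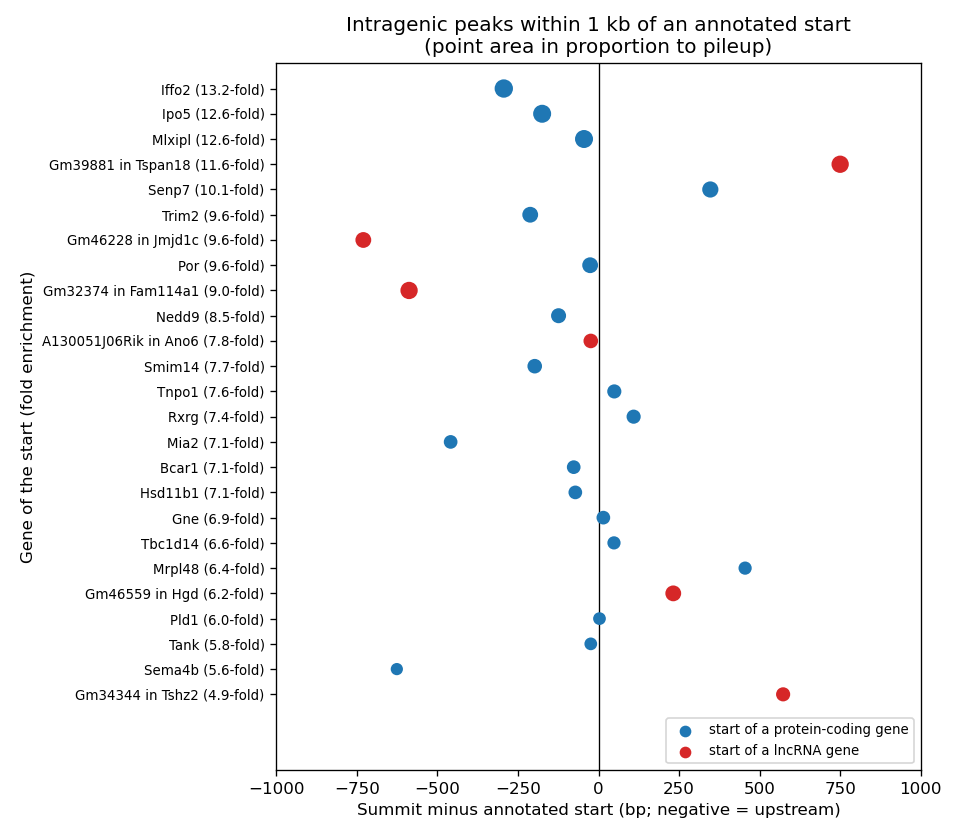
Summit position relative to the nearest annotated start (x axis, bp, negative upstream) for the 25 intragenic peaks within 1 kb of a start, 1 row per peak with its fold enrichment in the label, and point area in proportion to pileup. Blue points are starts of protein-coding genes and red points starts of lncRNA genes; 16 of the 25 lie within 250 bp.

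The strongest of the peaks at internal starts was in Iffo2, an intermediate filament family gene, with 25 fragments over the summit and a fold enrichment of 13.2 (exact Poisson interval 8.69 to 19.2). Fold enrichment here is the authors' ratio of ChIP to local background, (pileup + 1) over (background + 1). Its summit was 294 bp upstream of a start that lies 44.2 kb inside the gene. Mlxipl and Ipo5, an importin gene, had 24 fragments and 12.6-fold (8.28 to 18.6) each, at 45 and 175 bp upstream of starts 17.0 and 14.4 kb inside. Por and Trim2, a ubiquitin ligase gene, both had 18 fragments and 9.61-fold (5.90 to 14.9). The Trim2 start lies 48.6 kb from the 5′ end of the gene. Between these in strength, the start of the lncRNA gene Gm39881 within Tspan18 lay 750 bp from a peak of 22 fragments and 11.6-fold (7.45 to 17.3). Senp7, a SUMO protease gene, reached 10.1-fold (6.29 to 15.5) with its summit 347 bp downstream of the start.

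Several weaker peaks of this kind lay close to their starts. Pld1, the phospholipase D1 gene, had its summit 3 bp from a start at 6.05-fold (3.27 to 10.4), and Gne, the key enzyme gene of sialic acid synthesis, 15 bp away at 6.86-fold (3.88 to 11.4). Tank had 5.84-fold (3.16 to 10.1) at 24 bp. Nedd9 and Bcar1 encode scaffold proteins of the same Cas family, which act in integrin signalling. Their peaks lay 124 and 77 bp upstream of internal starts, at 8.49-fold (5.07 to 13.5) and 7.08-fold (4.01 to 11.8). Rxrg, a retinoid X receptor gene, had 7.35-fold (4.24 to 12.0) at 109 bp, and Hsd11b1, which regenerates active glucocorticoid, 7.08-fold at 72 bp. All the intervals given for these weaker peaks overlap, so no order among them can be read.

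The whole set was close in strength to the rest of the peak list. Pileup, which counts the ChIP fragments that cover a summit, ran from 9 to 94 with a median of 15 (quartiles 13 and 18.5). Fold enrichment ran from 3.90 to 19.7 with a median of 7.42 (quartiles 6.37 and 9.07), beside 7.35 (6.27 and 8.82) over all 2977 peaks. The median was 7.24 for intragenic peaks beyond 50 kb and 7.40 for intergenic peaks at 10 to 50 kb. Median width was 228 bp (172 to 620), against 230 bp in the whole list.

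At or above 10-fold stood 71 of the 407 peaks (17.4%, Wilson interval 14.1 to 21.4%), where the whole list had 14.4%. The share was 14.5% (11.3 to 18.6%) beyond 50 kb inside genes and 10.5% (7.77 to 14.1%) in intergenic DNA at 10 to 50 kb from genes. It was 16.6% (13.4 to 20.3%) in intergenic DNA beyond 50 kb, close to the 407. The interval for the 407 holds 14.4%, and the differences were not tested. For 367 of the 407 peaks the interval of the fold held the median of all peaks. It lay above that median in 35 and below it in 5. Since the list contains only regions that passed the caller's limit, the lower end of the distribution is truncated.

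**Figure D2:**
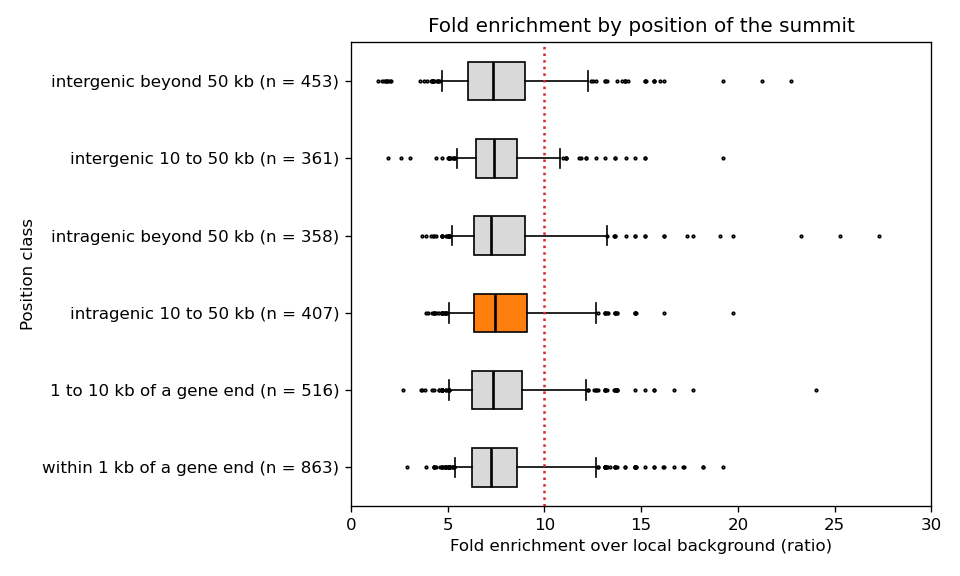
Fold enrichment over local background (x axis, ratio) of peaks on chromosomes 1 to 19 by position of the summit (rows, number of peaks in brackets), with boxes from the lower to the upper quartile, a line at the median, whiskers from the 5th to the 95th percentile and a dotted line at 10-fold. The intragenic peaks at 10 to 50 kb (orange, median 7.42) overlap all other classes.

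Mogat1 held the strongest peak. This gene encodes a monoacylglycerol acyltransferase of triglyceride synthesis, and its peak at chromosome 1, 78532405 to 78532867, had 38 fragments and 19.7-fold enrichment (14.1 to 26.9), 21.5 kb from the nearer gene end. A further Mogat1 peak with 15 fragments and 5.20-fold (3.05 to 8.36) stood 27.5 kb from that end. Pdpn, the gene of the membrane mucin podoplanin, came next with 31 fragments and 16.2-fold (11.2 to 22.8). Zfp568, a KRAB zinc finger gene, had 29 fragments and 14.7-fold (10.01 to 20.9). The interval of Mogat1 overlaps those of both Pdpn and Zfp568, so their order is not settled by the counts.

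Pax7 itself was among the strongest hosts, with 2 of these peaks in its span. One at chromosome 4, 139772599 to 139772954, had 28 fragments and 14.7-fold (9.92 to 21.0), 63.0% of the way from the 5′ to the 3′ end. Its other peak at 139821525 to 139821715 had 15 fragments and 8.09-fold (4.75 to 13.0), 12.3% of the way along. Rgs5, a regulator of G protein signalling that is also used as a pericyte marker, and Atp2b1, a plasma membrane calcium pump gene, each had a peak with the same 28 fragments and fold. In Atp2b1 a weaker peak of 6.47-fold adjoined the strong one, 369 bp from summit to summit.

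Several signalling genes stood at about the same level. Nfatc2, a calcineurin-dependent transcription factor gene, and Ror1, a receptor for Wnt5a, each had a peak of 27 fragments and 13.7-fold (9.21 to 19.7), at 41.9 and 43.0 kb from the nearer end. Tgfbr3, which encodes the TGF-beta co-receptor betaglycan, had 26 fragments and 13.2-fold (8.82 to 19.2), with a weaker neighbour of 5.52-fold (3.29 to 8.76). Smad3, the intracellular mediator of TGF-beta and activin signals, had 24 fragments and 12.3-fold (8.03 to 18) at 11.8 kb. Zbtb20, a zinc finger repressor gene, had 28 fragments and 12.4-fold (8.37 to 17.7) near its 3′ end, and a weaker peak of 7.20-fold near its 5′ end, at 94.4% and 4.56% of its span.

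The remaining hosts among the 20 highest folds were Anxa3 (an annexin), Usp29 (a deubiquitinase family gene), Trps1 (a GATA-type repressor), Enthd1, Iffo2, Mxra7, Adam18, Ipo5, Retreg1 and Zfp831, together with a peak of 13.7-fold (9.42 to 19.2) that lies in both Schip1 and the overlapping Iqschfp. Their folds ran from 12.6 to 13.7. On 24 fragments with background at its floor 6 peaks were tied, so Mlxipl, Rnf150 and Dis3l2 stand level with the last named. Retreg1, a receptor for autophagy of the endoplasmic reticulum, carried 3 of these peaks, at 12.6-fold, 7.08-fold and 5.86-fold.

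**Figure D3:**
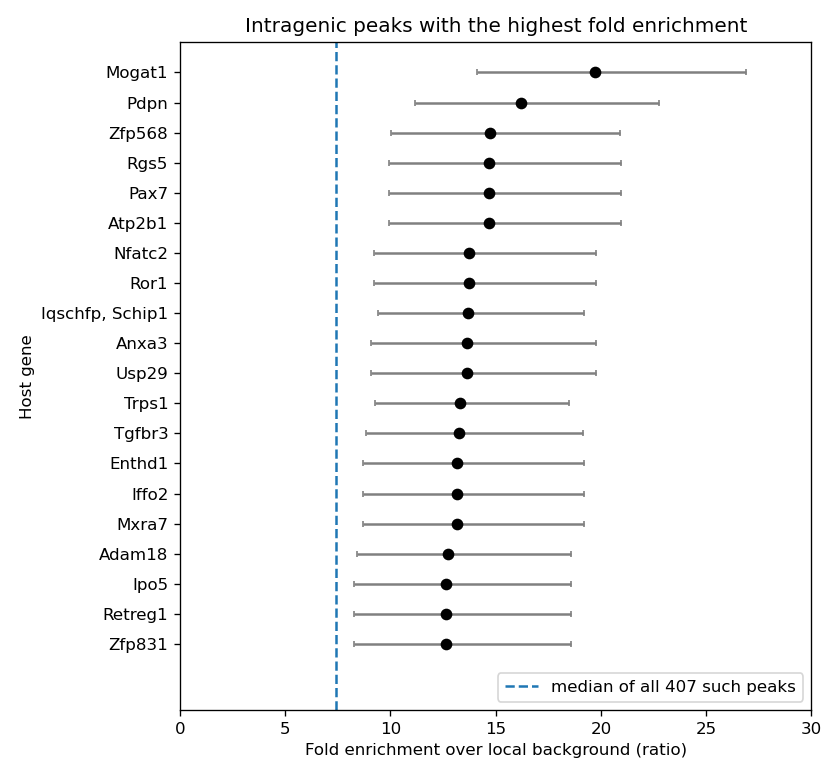
Fold enrichment over local background (x axis, ratio) of the 20 intragenic peaks with the highest values, named by host gene, with 95% exact Poisson intervals of the pileup as bars and the median of all 407 such peaks as a dashed line. Every interval shown lies above the median of 7.42, and all overlap one another.

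The 407 peaks fell into 352 host genes. Of the protein-coding genes with any room for such a peak, 9411 in number, these were 3.74%. In 305 hosts there was 1 peak, in 37 there were 2 and in 10 there were 3 or more. Hosts were long, with a median span of 106 kb (21.9 to 1973 kb), while genes with room had a median of 50.1 kb. Counts per gene therefore depend on length, and densities per Mb of territory are given where gene groups are set side by side. The territory, inside genes and at 10 to 50 kb from ends, came to 359 Mb (14.9% of the annotated autosomal length) with 1.14 peaks per Mb (1.03 to 1.25). Intragenic DNA beyond 50 kb had 1.04 per Mb (0.937 to 1.16) and intergenic DNA at 10 to 50 kb 1.05 per Mb (0.942 to 1.16), and DNA within 1 kb of gene ends 11.6 per Mb.

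Gxylt2, a xylosyltransferase gene that extends O-glucose on Notch receptors, held the most of these peaks, 5 in its 106 kb. Their folds were 8.57, 7.08, 11.1, 7.03 and 7.10 in order from the 5′ end, and the first 2 are 556 bp apart from summit to summit. Mdfic, which encodes a protein with a MyoD family inhibitor domain, held 4, at 6.83-fold, 6.58-fold, 9.80-fold and 7.28-fold. Lamc1, the laminin gamma 1 gene of the basal lamina, held 3 at 9.10-fold, 9.31-fold and 7.08-fold, spread over its span. Adamts5, a protease gene that cleaves proteoglycans such as versican, held 3 between 6.47-fold and 10.1-fold. Lpar1, a lysophosphatidic acid receptor gene, held 3 at 10.2-fold, 10.1-fold and 8.09-fold. Tln2, the talin 2 gene, held 3, the strongest with 31 fragments and 10.4-fold (7.16 to 14.6).

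The other hosts with 3 peaks were Pgm5, a phosphoglucomutase-related protein of adherens junctions, Slc7a8, an amino acid transporter gene, and Adtrp, besides Retreg1. In Slc7a8 the 3 peaks had 26, 28 and 14 fragments but folds of 10.5, 6.25 and 7.59, since the middle peak stood on a local background of 3.64 fragments.

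Some hosts held peaks close to each other. Among the 407 there were 59 pairs of neighbours in the same gene, 13 of them within 1 kb and 29 within 10 kb. Their median gap was 10378 bp, and peaks of other classes, which can lie between them, were not considered. The closest were in Nfib (276 bp between summits, 8.68-fold and 9.31-fold), Zeb2 (294 bp, 7.59-fold and 8.60-fold), Bicral (315 bp, 11.6-fold and 7.08-fold) and Tead1 (329 bp, 6.07-fold and 7.08-fold). Nfib, Zeb2 and Tead1 encode transcription factors. Whether such pairs are separate sites was not tested. With another peak of any class within 10 kb stood 62 of the 407 (15.2%, against 14.6% in the whole list), and 184 (45.2%) had none within 100 kb.

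Along the host gene the peaks showed no clear lean to either end. Strand was known from the start table for 298 peaks with a single host. Of these 164 (55.0%, Wilson interval 49.4 to 60.6%) were nearer to the 5′ end and 134 nearer to the 3′ end, with a median position at 44.8% of the span. Without the peaks within 1 kb of an annotated start the share was 52.6% (46.6 to 58.4%) of 274. In intragenic peaks beyond 50 kb it was 48.8% (43.0 to 54.6%) of 281. Median folds were 7.35 for the peaks nearer to the 5′ end and 7.59 for those nearer to the 3′ end.

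**Figure D4:**
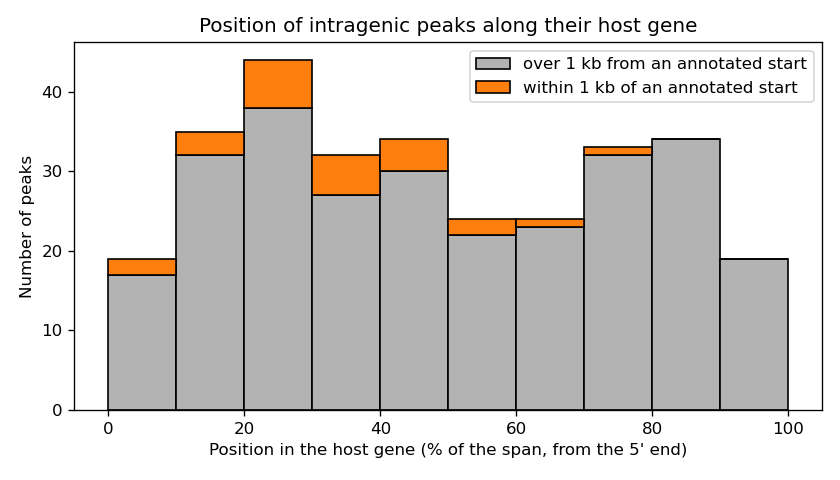
Number of intragenic peaks (y axis) by position along the host gene (x axis, percent of the span from the 5′ end) for the 298 peaks with a single host of known strand, with peaks within 1 kb of an annotated start in orange. The orange peaks lie mostly nearer to the 5′ end, and the others are spread over the span.

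The peaks were also divided by distance from the nearest end. Density was 1.04 peaks per Mb (0.881 to 1.22) at 10 to 20 kb, 1.002 (0.810 to 1.23) at 20 to 30 kb, 1.33 (1.07 to 1.64) at 30 to 40 kb and 1.39 (1.09 to 1.75) at 40 to 50 kb, with overlapping intervals. The median fold was 7.49, 7.08, 7.35 and 7.59 in the same order, and 19.7%, 10.6%, 21.1% and 16.9% of the peaks reached 10-fold. These differences were not tested. Just outside the inner limit were peaks in Abl2 at 9993 bp (15.7-fold) and Cnn3 at 9900 bp (8.12-fold), and just inside was Sh3pxd2b at 10031 bp (10.1-fold). At the outer limit Slit1 at 49988 bp (6.07-fold) and St7 at 49659 bp (5.08-fold) were in, and Galnt17 at 50012 bp (6.86-fold) and Mbnl2 at 50025 bp (7.59-fold) were out.

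Among muscle stem cell genes, 4 of the 24 with room held these peaks (16.7%, beside 3.74% of all genes with room). Besides Pax7 they were Calcr, the calcitonin receptor that marks quiescent cells, with peaks of 8.60-fold (5.13 to 13.6) and 7.08-fold (4.01 to 11.8). Notch2, a receptor of the Notch pathway, had 8.60-fold at 10.9 kb from its end, and Musk, the kinase that organises the neuromuscular junction, 6.99-fold (3.96 to 11.6) in the middle of its span. Over the genes of all 18 lists together, 67 of 650 with room held a peak (10.3%), at 2.16 per Mb. The 6 peaks of the muscle stem cell list gave 6.16 per Mb (2.26 to 13.4). This list, like the others, was put together with earlier results on these data known, so its count is no independent evidence.

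Genes of transcription factors with long spans held 19 peaks in 13 of 84 genes with room (15.5%), 3.14 per Mb (1.89 to 4.90). Over all genes with room the share was 3.74% with 1.14 per Mb, and over all listed genes 10.3% with 2.16 per Mb. After Zbtb20 the highest were Prrx1, a mesenchymal homeobox gene, at 10.6-fold (6.69 to 16.1), Tbx15, a T-box gene of skeletal development, at 10.1-fold (6.29 to 15.5), and Nfib at 9.31-fold (5.72 to 14.4). Esr1, the estrogen receptor gene, had 8.99-fold (5.78 to 13.4) and Zeb2 8.60-fold. Erg, Tead1, Zfhx4, Nfkb1, Foxp1, Tshz2 and Runx1 had highest folds between 5.88 and 8.07. Among chromatin regulators 3 of 58 held a peak (0.908 per Mb, 0.187 to 2.65), Arid5b at 9.31-fold, the DNA demethylase gene Tet2 at 7.84-fold and the remodeller gene Chd9 at 6.58-fold.

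Genes of the extracellular matrix and adhesion held 11 peaks in 7 of 64 genes (10.9%), 2.74 per Mb (1.37 to 4.90). All genes with room had 3.74% and 1.14 per Mb, and all listed genes 10.3% and 2.16 per Mb. Besides Adamts5 and Lamc1 the hosts were the collagen genes Col23a1 (8.09-fold), Col19a1 (7.99-fold) and Col4a2 (4.55-fold), Itgb5 (7.08-fold) and Cd44 (5.28-fold).

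Signalling pathways gave smaller counts with wide intervals. TGF-beta and BMP genes held peaks in 3 of 31 (3.26 per Mb, 1.06 to 7.61), with Ltbp1, a latent TGF-beta binding protein gene, at 8.59-fold and 6.94-fold besides Tgfbr3 and Smad3. Receptor tyrosine kinase genes held them in 4 of 39 (2.1 per Mb, 0.682 to 4.90), the adaptor Gab1 at 11.1-fold (7.08 to 16.7), the angiopoietin receptor Tek at 10.7-fold (6.89 to 16.0), the phagocytic receptor Mertk at 8.60-fold and Musk. Notch genes held them in 2 of 20 (2.43 per Mb, 0.294 to 8.77), the coactivator Maml3 at 10.8-fold (6.86 to 16.2) and Notch2. Wnt genes held them in 2 of 34 (1.11 per Mb, 0.135 to 4.02), Ror1 and Apc (5.06-fold), and calcium and cAMP genes in 2 of 44 (0.992 per Mb, 0.205 to 2.90), Nfatc2 and Calcr. Both densities are no higher than the overall 1.14 per Mb, and the intervals of all these pathway lists hold that value.

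Metabolic, turnover and muscle structure genes had densities between 1 and 3 per Mb with intervals that held the overall 1.14. Lipid and intermediary metabolism had 4 of 41 genes with a peak, Mogat1, the acetyl-CoA carboxylase gene Acacb at 8.20-fold, the glycogen branching enzyme gene Gbe1 at 8.09-fold and Ppargc1b at 7.08-fold. The ubiquitin and protein turnover list had 6 of 49, with Rnf150 (12.6-fold), Trim2, Usp6nl (8.07-fold), Fbxw11 (7.35-fold), Btbd9 (6.37-fold) and the atrophy gene Fbxo32 (4.69-fold). Usp6nl is on that list but encodes a Rab GTPase-activating protein. Sarcomere and excitation-contraction genes had 3 of 30, the thin filament capping gene Tmod1 at 9.61-fold, Cap2 at 7.82-fold and the calcium release channel gene Ryr1 at 7.35-fold. Cell cycle genes had 2 of 28, Cables1 (5.77-fold) and Cdk8 (3.98-fold).

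The lists also held marker genes of other muscle-resident cells. Endothelial and pericyte genes held peaks in 4 of 17 (23.5%, beside 3.74% of all genes with room and 10.3% of all listed genes with room). These were Rgs5, Tek, Erg at 8.07-fold and the adhesion molecule gene Pecam1 at 6.58-fold. Their list had 4.77 peaks per Mb (1.30 to 12.2), beside 1.14 over all genes and 2.16 over all listed genes. Leukocyte genes held them in 0 of 10 and fibro-adipogenic genes in 0 of 14, where the exact intervals reach 5.47 and 5.35 per Mb. Neuronal synapse genes, listed as a control, held 1 in 31 (0.400 per Mb, 0.0101 to 2.23), Dlg2 at 6.37-fold. A peak list holds no expression values, so the identity of the sorted cells was not tested.

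**Figure D5:**
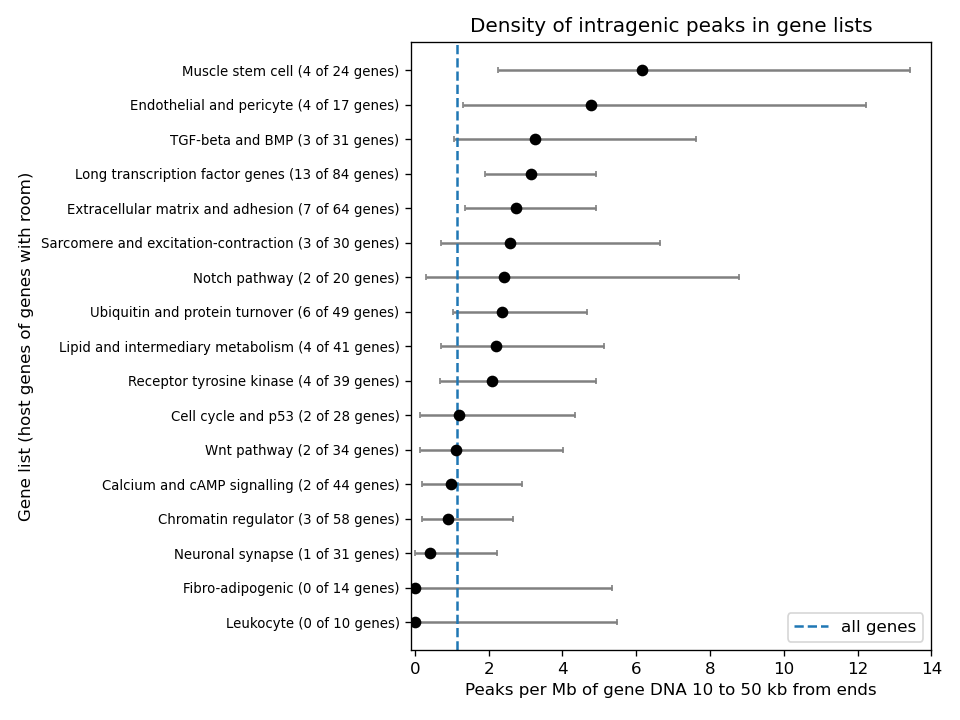
Peaks per Mb of gene DNA at 10 to 50 kb from gene ends (x axis) for 17 gene lists, with exact Poisson 95% intervals as bars, the number of host genes among genes with room in brackets, and the value over all genes (1.14) as a dashed line. The muscle stem cell list stands highest at 6.16 with a wide interval, and the leukocyte and fibro-adipogenic lists are at 0.

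Local background was low at most of these peaks. The caller's background, from input scaled to ChIP depth, was at its genome-wide floor of 0.977 fragments in 166 of the 407 (40.8%), against 44.1% of all peaks, so those ratios rest on the ChIP count alone. All peaks with the lowest background were tied at that floor, among them Mogat1, Pdpn and Pax7. The highest backgrounds were 21.8 fragments in Cdk8 and 20.8 in the overlapping genes Cmss1 and Filip1l. Their pileups of 90 and 94 were also the highest of the set, with folds of 3.98 (3.21 to 4.89) and 4.36 (3.53 to 5.32).

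By chromosome the density ran from 0.742 per Mb on chromosome 19 (8 peaks, interval 0.320 to 1.46) to 1.73 per Mb on chromosome 16 (24 peaks, 1.11 to 2.58). All other chromosomes lay between these values, and the intervals of these extremes overlap.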

How the data were processed

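ChIP DNA and input DNA of sorted muscle stem cells were sequenced, 1 library each, grouped by antibody and title. bcl2fastq 2.16, HISAT2 2.10, MACS2 2.1.1 and GRCm38 are named in the submitters' processing notes. The peak caller was MACS 2.1.1.20160309, run on 1 library against 1 library with q under 0.01, per the file headers. It kept 10622111 ChIP tags and 20429667 input tags (at most 1 per position), modelled fragments of 172 bp and scaled the input to ChIP depth, per the file headers. Pileup was deposited as coverage signal at each summit. Fold enrichment was deposited as a ratio. Significance was deposited as −log10 of the p-value and of the q-value.

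Background was recovered as (pileup + 1)/fold − 1. Spans and biotypes came from the RefSeq table of GRCm38.p6, with 21774 protein-coding genes used and 126 on scaffolds or patches left out. Exons were not used here. Starts and strands came from the RefSeq start table. Of 776 listed genes, 775 matched. Territory covered each chromosome between its outermost annotated genes, gaps included. Starts on chromosome 18 were not used here, and some genes on other chromosomes had no start in use. Intervals (95%) are exact Poisson for folds and densities and Wilson for shares; they cover counting error only. No test was run between libraries or classes. The members and the 18 lists were chosen with earlier results of these data known; 1 list and 1 peak at a limit are not reported here. Named genes are hosts of the 20 highest folds, hosts of 3 or more peaks, up to 6 hosts per list, and peaks next to the limits or with extreme background; other names were chosen after their values were seen. Internal starts, motif counts and density per Mb were also chosen after the files were seen, and motif counts at summits were not run for want of a genome here. Alternatives are in the closing section. The script that classifies positions was checked before use (Python 3.11.15, pandas 2.3.3, scipy 1.17.1).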

Additional observations from a re-analysis of the deposited data

How the results depend on the processing

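When the list was limited to its upper part by −log10 q (at least the median), 215 peaks met the rule, in 199 host genes and 41 listed genes, and 33.0% reached 10-fold. That filter acts on strength itself and leaves fewer peaks. With an outer limit of 100 kb the number of listed host genes was 101 in place of 67, since more DNA is included. Of the 17 lists reported, 6 changed their count of hosts by over 1.5 times with that limit: calcium and cAMP from 2 to 7, long transcription factor genes from 13 to 22, extracellular matrix from 7 to 11, lipid from 4 to 9, cell cycle from 2 to 5 and fibro-adipogenic from 0 to 1. With the −log10 q limit 6 did: Wnt from 2 to 1, long transcription factor genes from 13 to 7, extracellular matrix from 7 to 4, ubiquitin from 6 to 3, cell cycle from 2 to 1 and neuronal from 1 to 0. The other alternatives kept the count of peaks within 345 and 603, the median fold within 7.40 and 7.55 and the share at 10-fold within 15.9 and 17.5%; they were no highest-pileup 1%, the whole peak inside the gene, an inner limit of 5000 bp, the outer limit of 100 kb, ends of genes of every type and, added after seeing the data, no peaks with a neighbour within 10 kb and none within 1 kb of an annotated start. The whole-peak rule could change nothing, because these peaks were at most 620 bp wide with summits over 10 kb from every end. With ends of genes of every type 456 peaks met the rule, and 337 of them were among the 407. Of the 102 hosts named, 31 had no peak left with the −log10 q limit and 3 without the highest pileups. Both settings only drop peaks and recompute no fold, so the unchanged highest folds of the rest say nothing about stability. A typical peak rested on 15 fragments, which sets the width of the intervals. No paired analysis was possible because there was 1 library per group and no test between libraries.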

Other observations

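Outside the rule, on the X chromosome, 6 of the 17 peaks lay inside a gene at 10 to 50 kb from gene ends. The span of a lncRNA gene also held 23 of the 407 peaks. In 5 peaks the summit lay in 2 overlapping protein-coding genes, which were Iqschfp and Schip1 (2 peaks, the stronger at 13.7-fold), Ccdc33 and Stra6 (7.42-fold), Angpt2 and Mcph1 (6.37-fold), and Cmss1 and Filip1l (4.36-fold). Position does not say which gene of such a pair a peak belongs to.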
